A study of Mus musculus with 6 samples.

Results

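The subunits of AMPA and kainate receptors are encoded in the mouse by 9 genes, *Gria1* to *Gria4* and *Grik1* to *Grik5*. These are the complete families, chosen by name from the 52390 genes of the deposited table, and all 9 had enough counts to be tested. RNA from brain tissue was sequenced from 3 AP1AR-DT OE mice and 3 control mice, all of them male C57BL/6 animals whose medial prefrontal cortex (mPFC) was injected with a recombinant adeno-associated virus when they were 8 weeks old. In AP1AR-DT OE mice the virus carried a human long noncoding RNA, *AP1AR-DT*, driven by the neuronal human synapsin promoter, and EGFP driven by the CMV promoter. Control mice received the virus without an insert. The cells that took up the virus were not separated from the rest of the tissue, which the labels call brain and the study's text both mPFC and cortical tissue. The control libraries are numbered as their mice (1 to 3). The AP1AR-DT OE libraries are called A, B and C because their column names do not match a mouse number.

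AMPA and kainate receptors are tetrameric ion channels opened by glutamate. GluA1 to GluA4, encoded by *Gria1* to *Gria4*, carry most of the fast excitatory current between neurons of the cortex. GluK1 to GluK3 (*Grik1* to *Grik3*) can form kainate receptors on their own, whereas GluK4 and GluK5 (*Grik4* and *Grik5*) bind agonist with high affinity and reach the surface in assemblies with them. Kainate receptors act on both sides of the synapse and tune transmitter release and excitability. The study is about excitatory synaptic transmission, and the comparison here asks whether the messenger RNA (mRNA) of the receptor subunits differed between the groups.

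One codon in the pore loop sets much of what these channels conduct, and it is shown for every subunit. In *Gria2* mRNA, and in part of the *Grik1* and *Grik2* mRNA, the enzyme ADAR2 edits the middle A of a CAG codon so that glutamine (Q) is read as arginine (R), which lowers calcium permeability at this Q/R site. The runs below are 42 bases of the reference transcript, 5′ to 3′, with the codon of the Q/R site in capitals.
Gria1: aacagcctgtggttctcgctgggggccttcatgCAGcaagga
Gria2: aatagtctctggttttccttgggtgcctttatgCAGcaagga
Gria3: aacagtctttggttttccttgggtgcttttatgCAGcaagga
Gria4: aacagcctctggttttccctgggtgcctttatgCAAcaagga
Grik1: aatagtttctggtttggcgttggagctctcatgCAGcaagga
Grik2: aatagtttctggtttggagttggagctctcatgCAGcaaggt
Grik3: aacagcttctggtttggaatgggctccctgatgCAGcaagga
Grik4: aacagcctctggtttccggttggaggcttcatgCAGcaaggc
Grik5: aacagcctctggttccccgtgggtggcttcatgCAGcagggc
The unedited reference codon is a glutamine codon in all 9 genes, CAA in *Gria4* and CAG in the others. The *Gria3* run shared 39 of 42 bases with *Gria2*, and the *Grik1* run 40 of 42 with *Grik2*. The codon lies at chr3:80706911-80706913 (GRCm38, minus strand, exon 11) in *Gria2*, at chr10:49244329-49244331 (minus strand, exon 13) in *Grik2* and at chr7:25022497-25022499 (minus strand, exon 16) in *Grik5*, with exons numbered along the transcript used. The runs of *Grik1*, *Grik2* and *Grik3* cross an exon junction. Counts per gene do not show how much of the mRNA was edited, and editing was not analysed here. Although the families are related, no 100-base stretch of a subunit's longest transcript occurred in a transcript of another gene.

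*Grik5* was the only subunit gene called between the groups, and it was higher in AP1AR-DT OE mice. None of the AMPA subunit genes and none of the other kainate subunit genes passed. A gene was called when edgeR's quasi-likelihood test gave an unadjusted *P* under 0.05 and the Log2FC (log2 of AP1AR-DT OE over control) was above 0.32 in size, the thresholds of the study. By this rule 1 of the 9 members was called, higher, and 0 lower, while of all genes tested 12.2% were called, 5.1% higher and 7.15% lower. The share of members called was thus no larger than that of all genes. At an adjusted *P* under 0.05 the call held for 0 members and for 6 of the 21844 genes tested (0.0275%). The median Log2FC of the 9 members was -0.11, beside -0.014 for all genes tested, and 4 of the 9 were above 0. The normalized CPM of the groups did not overlap in 1 of the 9, beside 22.4% of all genes tested. In bulk tissue fewer cells of a type and less RNA per cell cannot be told apart.

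**Figure D1:**
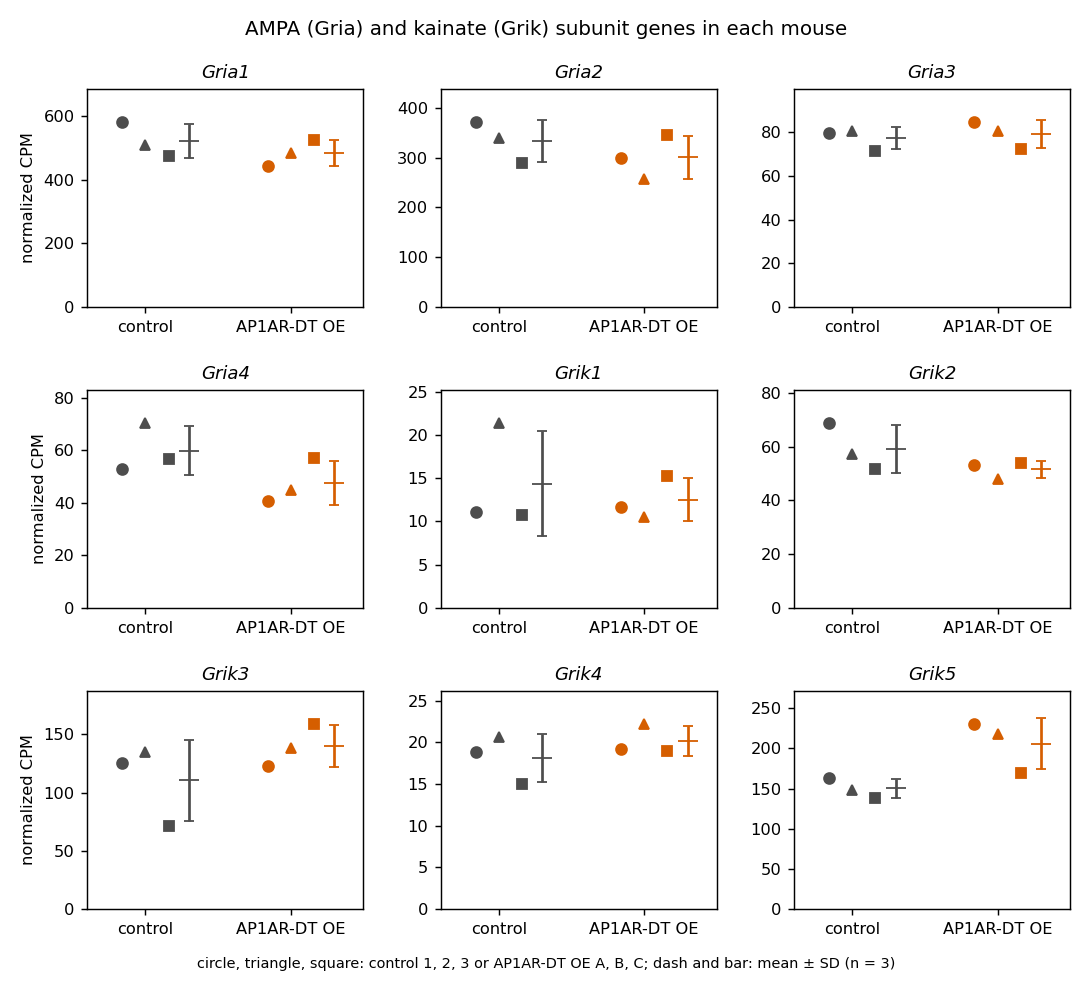
Normalized CPM (counts relative to each library's TMM-scaled total) of each subunit gene in each mouse, control in grey and AP1AR-DT OE in orange, with the mean ± SD (n = 3) beside the points. Only *Grik5* has groups that do not overlap, with controls up to 163 and AP1AR-DT OE mice from 169.

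*Gria1* (ENSMUSG00000020524), which encodes GluA1, the subunit added to synapses during plasticity, lies at chr11:57011387-57330244 (GRCm38, as for all genes here) on the plus strand. Its normalized CPM were 582, 511 and 474 in control 1, 2 and 3 and 444, 485 and 526 in AP1AR-DT OE A, B and C. The highest value was in control 1 and the lowest in AP1AR-DT OE A, and the groups overlapped. The means were 522 ± 54.8 in control and 485 ± 40.8 in AP1AR-DT OE mice (SD, n = 3). The Log2FC was -0.11, with a standard error (SE) of 0.113 and a 95% confidence interval from -0.37 to 0.16.

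*Gria2* (ENSMUSG00000033981, chr3:80681450-80802835, minus strand) encodes GluA2, the subunit that makes AMPA receptors poorly permeable to calcium once edited. The normalized CPM were 371, 340 and 288 in control mice and 300, 258 and 345 in AP1AR-DT OE mice. The groups overlapped, and AP1AR-DT OE C lay above control 2 and control 3. The Log2FC was -0.15 (SE 0.141, edgeR adjusted *P* = 0.638, exact permutation *P* = 0.5). The ratio of *Gria1* to *Gria2*, compared per kilobase of transcript, was 2.94 ± 0.129 in control and 3.04 ± 0.413 in AP1AR-DT OE mice (SD, n = 3) and overlapped between the groups. Without a length the ratio of their counts was 1.57 and 1.63.

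*Gria3* (ENSMUSG00000001986, chrX:41400854-41678601, plus strand), the X-linked subunit that pairs with GluA2, had the smallest SE of the 9 (0.0993). It had 79.8, 80.7 and 71.7 normalized CPM in control mice and 84.6, 80.6 and 72.4 in AP1AR-DT OE mice. The Log2FC was 0.034, with a 95% confidence interval from -0.20 to 0.27, which lies within the threshold of 0.32 on both sides. *Gria4* (ENSMUSG00000025892, chr9:4417896-4796234, minus strand), the fast-gating subunit prominent in interneurons and thalamus, had the lowest Log2FC of the 9, without passing the test. Its normalized CPM were 52.7, 70.3 and 56.6 in control mice and 40.8, 44.9 and 56.9 in AP1AR-DT OE mice. AP1AR-DT OE A and B lay below every control, while AP1AR-DT OE C lay above control 1 and control 3. The Log2FC was -0.33 (SE 0.165, edgeR adjusted *P* = 0.379, exact permutation *P* = 0.3). Without AP1AR-DT OE C it was -0.47 and was called, while without control 2 it was -0.19 and without AP1AR-DT OE A -0.23, not called in either.

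Among the kainate subunits that can form channels on their own, *Grik1* (ENSMUSG00000022935, chr16:87895900-88290265, minus strand), known from interneurons, had 11.1, 21.4 and 10.7 normalized CPM in control mice and 11.7, 10.5 and 15.3 in AP1AR-DT OE mice. Control 2 held the highest value, and the other 5 mice lay between 10.5 and 15.3. The Log2FC was -0.20 (SE 0.299), and without control 2 it was 0.21. *Grik2* (ENSMUSG00000056073, chr10:49094833-49788766, minus strand) encodes GluK2, the most widely used kainate subunit of principal neurons. Its normalized CPM were 68.8, 57.2 and 51.6 in control mice and 53.2, 47.9 and 53.8 in AP1AR-DT OE mice. The means were 59.2 ± 8.77 and 51.6 ± 3.25 (SD, n = 3), and the groups overlapped because control 3 lay below AP1AR-DT OE A and C. The Log2FC was -0.20 with a 95% confidence interval from -0.50 to 0.10.

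*Grik3* (ENSMUSG00000001985, chr4:125490700-125714173, plus strand) encodes GluK3, a subunit of low glutamate sensitivity. It had 126, 135 and 70.9 normalized CPM in control mice and 123, 138 and 159 in AP1AR-DT OE mice. Control 3 stood apart at the low end, and controls 1 and 2 lay between AP1AR-DT OE A and B. The Log2FC was 0.34 (SE 0.239, edgeR adjusted *P* = 0.512, exact permutation *P* = 0.3), and 0.12 without control 3.

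Of the high-affinity pair, *Grik4* (ENSMUSG00000032017, chr9:42518135-42944493, minus strand) had 18.8, 20.7 and 15.0 normalized CPM in control mice and 19.2, 22.2 and 18.9 in AP1AR-DT OE mice. The groups overlapped, and the Log2FC was 0.15 (SE 0.152). *Grik5* (ENSMUSG00000003378, chr7:25009849-25072346, minus strand), which encodes GluK5, the usual partner of GluK2, had 163, 149 and 139 normalized CPM in control mice and 230, 218 and 169 in AP1AR-DT OE mice. Every AP1AR-DT OE mouse lay above every control, with a narrow gap between AP1AR-DT OE C at 169 and control 1 at 163. The raw counts behind these values were 6618, 7400 and 6932 in control and 12208, 11775 and 8894 in AP1AR-DT OE libraries. The means were 150 ± 12.01 and 206 ± 32.2 (SD, n = 3), a fold of 1.37 and a Log2FC of 0.46 with a 95% confidence interval from 0.14 to 0.77. edgeR's quasi-likelihood test gave *P* = 0.0109 and an adjusted *P* of 0.295, and the exact two-sided permutation test gave 0.1, the smallest value that 3 mice against 3 allow. With each mouse left out in turn the Log2FC of *Grik5* ran from 0.37 to 0.59, with 0.46 without control 2 and 0.42 without control 3, and it was called every time.

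Across all genes tested the Log2FC was higher at a higher GC content, from a median of -0.30 in the lowest decile of GC content to 0.22 in the highest. *Gria2*, *Gria3* and *Grik2*, at 36.8%, 39.8% and 37.9% GC, belong to the lowest decile. *Grik5*, at 61.7% GC, belongs to the highest, where 17.5% of genes were called higher. All 3 members above 50% GC (*Grik3*, *Grik4* and *Grik5*) had a Log2FC above 0, and of the 6 below 50% only *Gria3* did.

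**Figure D2:**
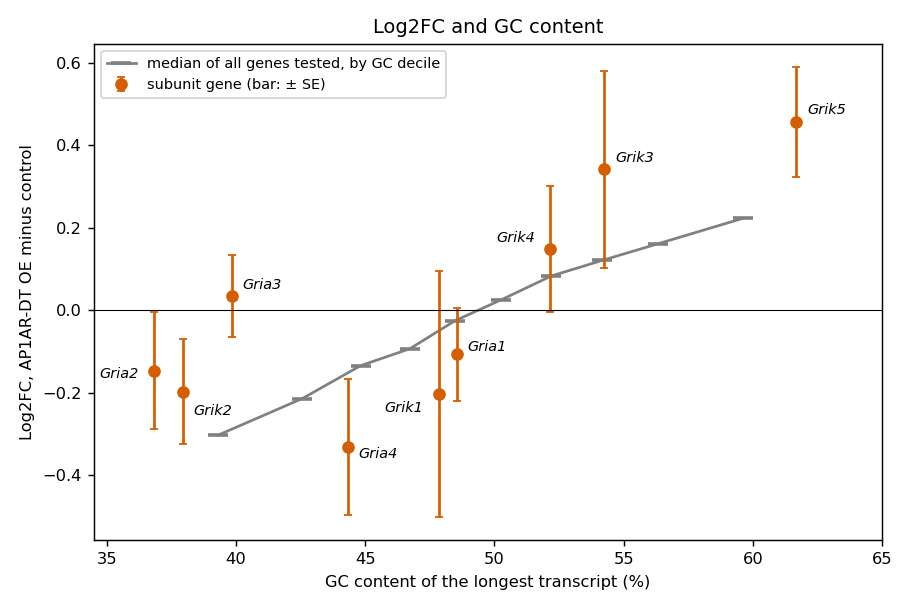
Log2FC of each subunit gene (points, ± SE) against the GC content of its longest transcript in percent, with the median Log2FC of all genes tested in each GC decile (grey dashes, at the decile's median GC content). The grey line climbs from -0.30 to 0.22, with *Gria2* and *Grik2* at its low end and *Grik5* at its high end.

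With GC content as a smooth term removed from every library, 0 of the 9 members were called, beside 7.18% of all genes tested (2.77% higher and 4.41% lower). The Log2FC of *Grik5* became 0.18, with a 95% confidence interval from -0.088 to 0.44. That of *Gria2* moved from -0.15 to 0.19 and that of *Grik2* from -0.20 to 0.12, so both changed sign. *Gria3* moved to 0.32, with an interval from 0.036 to 0.60, at a Log2FC just under the threshold and hence not called. Its adjusted *P* was between 0.542 and 0.990 over the 16 fits with edgeR, DESeq2 or limma. *Gria1* stayed near its uncorrected value at -0.086 and *Gria4* was at -0.18. The corrected median of the 9 members was 0.12. *Grik5* was called in 14 of 16 fits and was not called in the 2 with a GC correction. Each mouse gave 1 library, so differences between libraries and between animals cannot be told apart.

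**Figure D3:**
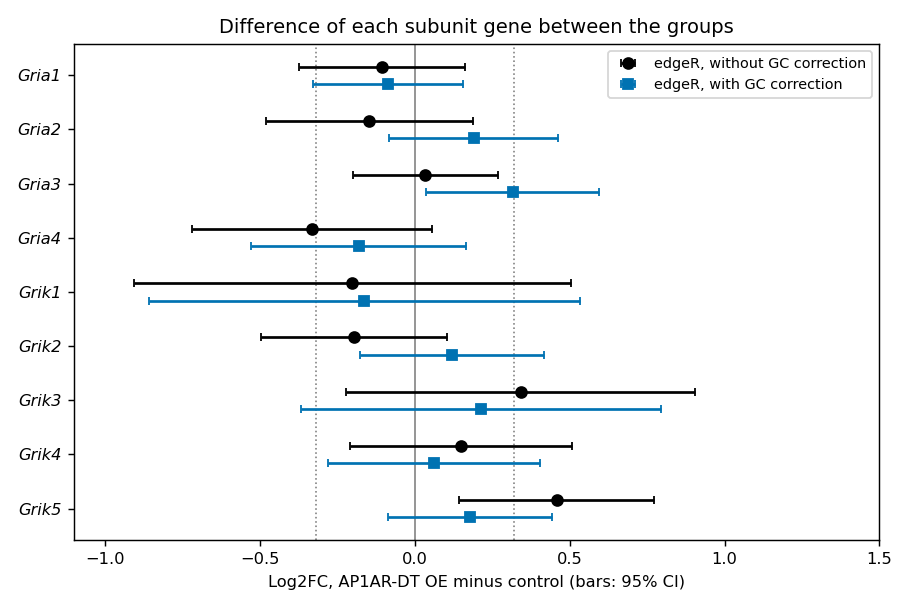
Log2FC of each subunit gene with its 95% confidence interval from edgeR, without (black) and with (blue) correction for GC content, and dotted lines at the threshold of 0.32 in either direction. The correction used the GC content of the longest transcript. The interval of *Grik5* excludes 0 only without it (0.14 to 0.77 against -0.088 to 0.44), and that of *Gria3* only with it.

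To compare genes with each other, normalized CPM were divided by the length of the longest transcript in kilobases. On this scale *Gria1* was the most abundant subunit, with a mean of 90.8 over the 6 mice (range 80.0 to 105). *Grik5* followed at 43.8 (34.2 to 56.7) and *Gria2* at 30.6 (24.9 to 35.8). The ranges of *Grik5* and *Gria2* overlapped, although *Grik5* was above *Gria2* in 6 of 6 libraries. *Gria3* at 15.0, *Grik3* at 14.0 and *Gria4* at 9.87 came next, with ranges that overlapped from one to the next. *Grik2* had a level of 5.88, *Grik1* of 3.68 and *Grik4* of 3.25, and *Grik1* was above *Grik4* in only 3 of 6 libraries. The length matters here, since the longest *Gria2* transcript has 10371 bases and that of *Grik5* 4061. Without a length *Gria2* had more normalized CPM than *Grik5* in every mouse. The means of *Gria2* were 333 in control and 301 in AP1AR-DT OE mice, against 150 and 206 for *Grik5*. The place of *Grik5* above *Gria2* thus holds only per length. With the merged exons of all transcripts as the length, *Gria1* (83.3), *Grik5* (34.4) and *Gria2* (20.4) kept their order, while *Grik3* (14.0) and *Gria4* (8.52) came to lie above *Gria3* (7.94), and *Grik4* (3.21) above *Grik1* (2.00).

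Within the AMPA family the shares of all 4 subunits overlapped between the groups. *Gria1* made up 61.9 ± 1.62% of the summed level per kilobase in control and 62.3 ± 2.00% in AP1AR-DT OE mice (SD, n = 3). *Gria2* made up 21.1 ± 0.729% and 20.6 ± 2.05%. The shares of *Gria3* were 9.79% and 10.9% and those of *Gria4* 7.28% and 6.19%. Such shares do not depend on the scaling between libraries, but they do depend on the lengths, and with no length *Gria2* made up 33.5% and 32.9%.

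Within the kainate family the shares of *Grik2* and *Grik4* did not overlap between the groups. A share is relative to the kainate sum, of which *Grik5* was the largest part. The normalized CPM of both genes did overlap, with a Log2FC of -0.20 for *Grik2* and 0.15 for *Grik4*. Shares of this kind were not computed for other genes, so no background stands beside them. *Grik2* took 10.8%, 9.05% and 10.3% of the summed kainate level in control mice and 6.84%, 6.27% and 7.87% in AP1AR-DT OE mice. Every AP1AR-DT OE mouse was below every control, and the means were 10.1 ± 0.905% and 6.99 ± 0.808% (SD, n = 3). *Grik5* took 59.4 ± 4.94% and 64.2 ± 5.92%, which overlapped. *Grik4* was at 4.72% to 5.23% in control and 3.96% to 4.65% in AP1AR-DT OE mice, but its shares overlapped when no length was used. With no length the *Grik2* shares were 16.9% and 12.01% on average and still did not overlap. The shares of *Grik1* and *Grik3* overlapped, and that of *Grik3* in control was 19.3%, or 30.8% with no length. The ratio of *Grik5* to *Grik2* per kilobase was 5.49, 6.03 and 6.25 in control mice and 10.1, 10.6 and 7.31 in AP1AR-DT OE mice. The means were 5.92 ± 0.390 and 9.32 ± 1.76 (SD, n = 3). On counts without a length the ratio was 2.37 to 2.69 in control mice and 3.15 to 4.56 in AP1AR-DT OE mice, also without overlap. *Grik5* and *Grik2* stand at the opposite ends of GC content, and the difference between their Log2FC, 0.65 without correction, was 0.057 with the GC correction by the longest transcript. With GC content averaged over transcripts they lay further apart than that, at 0.24 for *Grik5* and 0.055 for *Grik2*.

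**Figure D4:**
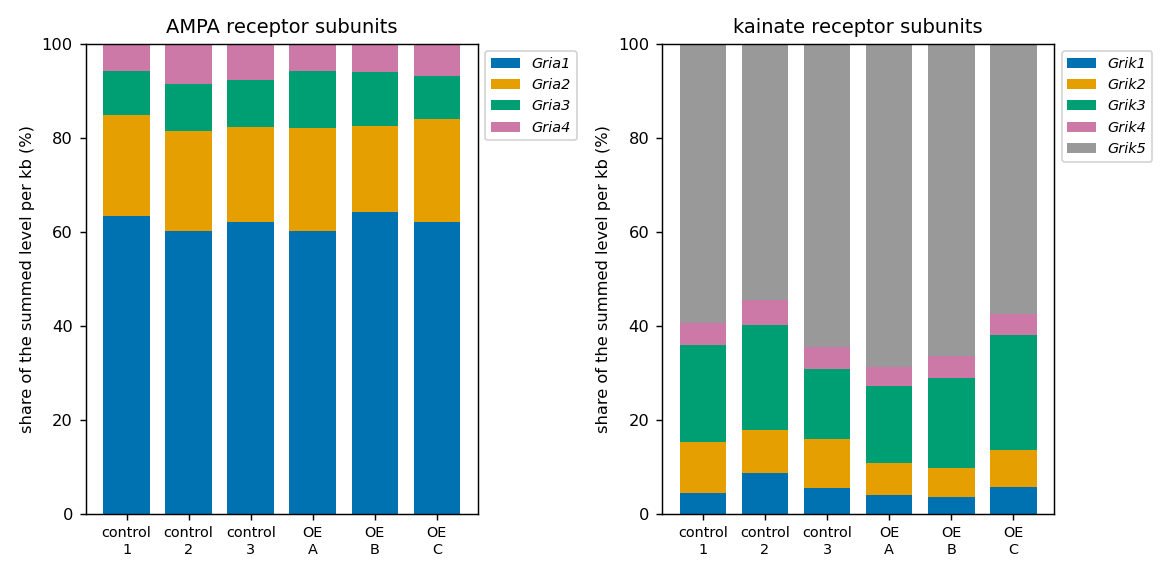
Share of each subunit gene in the summed level per kilobase of its family, in percent, as stacked bars for each of the 6 mice (OE, AP1AR-DT OE), AMPA on the left and kainate on the right. *Gria1* takes 60.1% to 64.3% in every mouse, and the *Grik2* segment is between 9.05% and 10.8% in control and between 6.27% and 7.87% in AP1AR-DT OE mice.

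Summed over its subunits, the AMPA level per kilobase was 152 ± 14.2 in control and 140 ± 10.5 in AP1AR-DT OE mice (SD, n = 3), and the groups overlapped. The kainate sum was 67.6, 67.1 and 53.0 in control mice and 82.4, 80.9 and 72.5 in AP1AR-DT OE mice. The kainate groups did not overlap, and *Grik5* held more than any other subunit of that sum in each of the 6 mice. The ratio of the AMPA to the kainate sum was 2.44 ± 0.152 in control and 1.80 ± 0.265 in AP1AR-DT OE mice (SD, n = 3), also without overlap. These sums and ratios were taken without GC correction. The Log2FC of *Grik5*, at 61.7% GC, was 0.46 without the correction and 0.18, not called, with it. No test was made of these sums and ratios.

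The library totals ran from 42061721 to 54668294 counts, and *AP1AR-DT*, a human gene, is not listed in the table of mouse genes, so these data do not show the overexpression itself. Mitochondrial genes took 7.20% to 9.86% of the counts in control and 5.75% to 6.80% in AP1AR-DT OE libraries. Markers of cortical excitatory neurons, 10 of 10 measured, summed to 1375 to 2433 normalized CPM in control and 2017 to 3547 in AP1AR-DT OE libraries. The choroid plexus list, 8 of 10 tested, reached 3967 in control 3, was at 76.7 and 75.2 in controls 1 and 2, and at 58.1 to 76.0 in AP1AR-DT OE libraries. Thalamic markers, 7 of 7, were at 205 to 880 in control, highest in control 3, and at 154 to 201 in AP1AR-DT OE libraries. The hypothalamic list, 8 of 8, was at 619 in control 2, 78.1 in control 3 and 7.35 in control 1, and at 12.1 to 31.8 in AP1AR-DT OE libraries, with *Oxt* and *Hcrt* at 0 in at least 1 library. The cerebellar list, 4 of 6 tested, was at 85.8 to 136 in control and 54.5 to 71.5 in AP1AR-DT OE libraries. *Gabra6* and *Pcp2* were at 0 in at least 1 library. Most of each sum was *Calb1*, at 69.1 to 125 in control and 46.5 to 63.0 in AP1AR-DT OE libraries, so the list largely followed 1 gene. Endothelial markers, 7 of 7, were at 86.6 to 100.3 in control and 104 to 143 in AP1AR-DT OE libraries. Oligodendrocyte markers were at 10965 in control 3 and at 5197 to 6620 in the other libraries, and striatal markers at 382 to 1422 in control and 882 to 2512 in AP1AR-DT OE libraries. Interneuron markers were lowest in control 3, at 1045 beside 1742 to 2163 elsewhere. Microglia sums were 324 to 391 in control and 339 to 477 in AP1AR-DT OE libraries. Called higher were 3 of 8 microglia, 2 of 7 endothelial, 1 of 8 interneuron and 1 of 10 excitatory markers. Called lower were 5 of 8 choroid plexus, 4 of 8 hypothalamic, 3 of 7 thalamic and 2 of 4 cerebellar markers. So were 2 of 8 astrocyte, 2 of 8 oligodendrocyte and 1 of 10 excitatory markers. Of all genes tested 5.1% were called higher and 7.15% lower. Astrocyte sums (4249 to 5246 in control, 4168 to 4392 in AP1AR-DT OE) and those of oligodendrocyte precursors (549 to 749 and 579 to 629) overlapped. The part of these markers and of the mitochondrial difference in the members' values was not tested.

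Genes that work with the receptors were taken as 6 lists of 58 genes, of which 57 were tested. Of these, 6 were called higher and 5 lower, beside 5.1% and 7.15% of all genes tested, and their median Log2FC was 0.11. With the GC correction 4 were called higher and 5 lower, beside 2.77% and 4.41% of all genes. The called genes were in part different ones. The correction ended the calls of *Cacng8*, *Shisa8*, *Pick1*, *Olfm3*, *Frrs1l* and *Vps35*, and *Cacng2* (-0.33), *Cacng4* (-0.37), *C1ql2* and, higher, *Lrrtm4* (0.78) were called with it and not without it. With GC content averaged over transcripts *Cacng2* was at -0.30 and not called. *Cacng2* and *Cacng4*, which encode TARP proteins, and *Lrrtm4*, which encodes a synaptic adhesion protein and shares 25.1% of its exon bases with an antisense gene, were named after their values were seen.

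The list of AMPA auxiliary subunits, proteins found with the channel, many of which set its gating or surface supply, held 5 of the 11 calls. Of its 20 genes 4 were called higher, with the uncertain *Prrt2* among them, and 1 lower. Of all genes tested 12.2% were called in either direction. *Cnih3*, a cornichon that slows deactivation and promotes export to the surface, had 33.3, 22.8 and 32.4 normalized CPM in control mice and 46.8, 61.1 and 52.0 in AP1AR-DT OE mice. The groups were well apart, the Log2FC was 0.85 (SE 0.176, edgeR adjusted *P* = 0.295, exact permutation *P* = 0.1), and *Cnih3* was called in 16 of 16 fits, with 0.74 after GC correction. *Cacng8*, the regulatory protein TARP gamma-8 of forebrain AMPA receptors, had 99.1, 88.1 and 93.2 in control mice and 119, 142 and 122 in AP1AR-DT OE mice. Its Log2FC of 0.45 became 0.11 with the GC correction and was not called, beside a GC content of 65.1%. *Shisa8*, of a family of receptor-bound membrane proteins, had 6.81, 4.22 and 6.41 in control mice and 12.9, 7.86 and 13.4 in AP1AR-DT OE mice, a Log2FC of 0.97, which was 0.64 and no longer called with the correction. *Olfm3*, an olfactomedin found in AMPA receptor complexes, had 40.2, 42.8 and 41.1 in control mice and 30.9, 26.8 and 27.6 in AP1AR-DT OE mice. Its Log2FC of -0.54 became -0.19 with the correction and was not called, beside a GC content of 36.7%.

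The remaining call, *Prrt2*, is uncertain because 92.4% of its exon bases also belong to *Gm42742* on the same strand. *Prrt2* ran from 4.42 normalized CPM in control 1 to 229 in AP1AR-DT OE B, a Log2FC of 2.76 with an SE of 0.842. *Gm42742* had 202, 153 and 167 in control mice and 222 in AP1AR-DT OE A, and 0 in AP1AR-DT OE B and C. The sum of the pair was 206, 178 and 203 in control mice and 264, 229 and 170 in AP1AR-DT OE mice, which overlapped.

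Among 8 genes of AMPA receptor biogenesis 1 was called lower, beside 7.15% of all genes tested. This was *Frrs1l*, which acts on the channel in the endoplasmic reticulum before the auxiliary subunits join. It had 190, 186 and 210 normalized CPM in control mice and 143, 153 and 168 in AP1AR-DT OE mice. Its Log2FC was -0.34, and -0.15, not called, with the GC correction. Among 16 genes of trafficking and anchoring, 2 were called higher and 2 lower, beside 5.1% and 7.15% of all genes tested. *Akap5*, which anchors kinases and a phosphatase at GluA1, had 116, 45.7 and 44.7 in control mice and 35.2, 21.9 and 32.2 in AP1AR-DT OE mice. Control 1 was far above the other controls, and the Log2FC was -1.21 (SE 0.399). It was -0.60 without control 1 and -1.05 with the GC correction, called in both. *Dlg4*, which encodes the scaffold PSD-95, had a Log2FC of 0.34 with overlapping groups and 0.42 with the correction, but 0.18, not called, when the GC content was averaged over transcripts. *Pick1*, which binds the GluA2 tail, had a Log2FC of 0.35, and *Vps35*, of the retromer that returns receptors to the surface, of -0.36. Of the exon bases of *Pick1*, 18.6% also belong to *Gm49486*. Neither was called with the correction, at 0.26 for *Pick1* and -0.036 for *Vps35*.

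None of the 4 measured kainate partner genes was called. The lowest *P* was that of *C1ql2*, which recruits kainate receptors at mossy fibre synapses, at 7.01, 19.2 and 62.1 normalized CPM in control mice and 10.7, 12.2 and 6.27 in AP1AR-DT OE mice. The groups overlapped, and its Log2FC of -1.60 was -1.91 with the GC correction, where it was called, and -0.42 without control 3, where it was not called. None of the 3 RNA editing enzymes was called, and *Adar*, with the lowest *P* among them, had a Log2FC of 0.14. *Adarb1*, which encodes ADAR2 and was named after its values were seen, had 223, 191 and 404 normalized CPM in control mice and 238, 229 and 240 in AP1AR-DT OE mice, a Log2FC of -0.21 (SE 0.264). Every AP1AR-DT OE mouse lay above controls 1 and 2 and below control 3. With each mouse left out in turn the Log2FC of *Adarb1* ran from -0.40 to 0.20. Of 6 synaptic organisers 1 was called lower, beside 7.15% of all genes tested. This was *Cbln1*, at 10.7, 59.7 and 71.2 in control mice and 11.8, 12.1 and 21.1 in AP1AR-DT OE mice. Control 1 lay below all AP1AR-DT OE mice, and controls 2 and 3 lay above them all. A relation of *Cbln1* to the region markers was not tested.

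**Figure D5:**
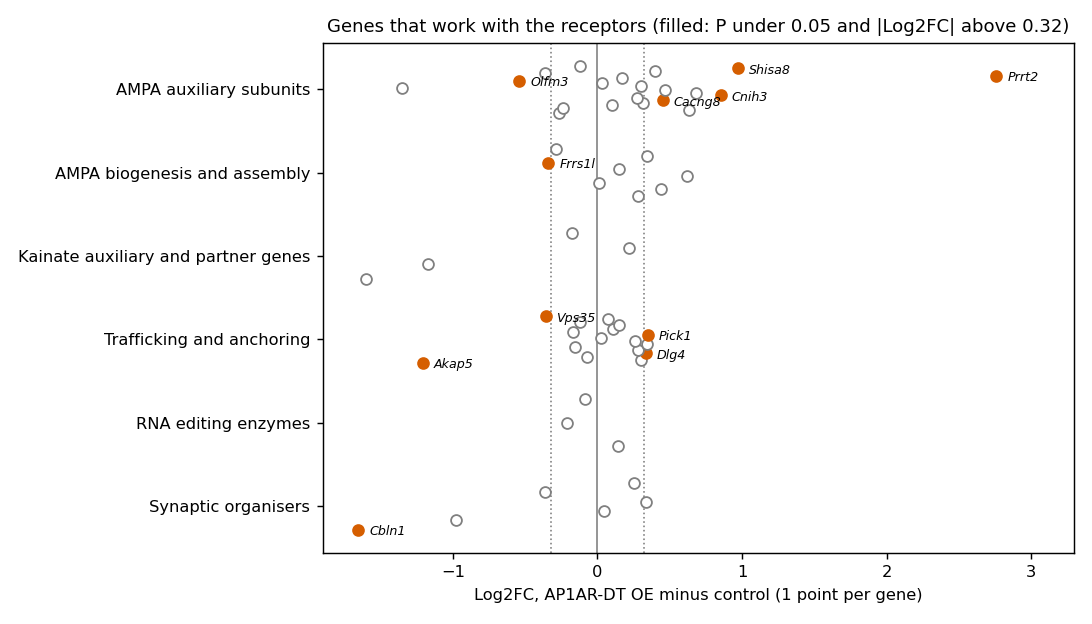
Log2FC of the 57 tested genes of the 6 lists of receptor partners, 1 point per gene, with called genes filled and named and dotted lines at the threshold of 0.32 in either direction. *Prrt2* at 2.76 and *Cbln1* at -1.65 lie farthest from 0 among the called genes.

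By the pattern of its log2 normalized CPM over the 6 libraries, *Grik5* was most like *St6galnac6* (Pearson r = 0.999), *Nubp2* (0.995) and *Bap1* (0.993), as a description. Of 14169 genes of other families compared, 178 had an r above 0.95 with it. These 3 genes had GC contents of 53.8% to 57.7% and a Log2FC between 0.22 and 0.40.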

How the data were processed

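Brain RNA-seq of 3 AP1AR-DT OE and 3 control mice was used. Per the study's methods, reads were mapped to GRCm38 with Bowtie2, which does not split reads at introns, and StringTie with the GENCODE annotation gave coverage that its script turned into whole-number counts per gene, which the authors deposited without normalization. GEO's processing notes instead name mm9, TopHat2 2.0.4, HTSeq and edgeR 2.6.12. The use of strand is not given in the sources used here. The deposited table also holds the authors' DESeq2 mean normalized count (a signal), log2 fold change, standard error, Wald score and P-values, none of which were used.

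Counts were tested in R 4.3.3 with edgeR 4.0.16 (filterByExpr, TMM, quasi-likelihood F-test, two-sided, Benjamini-Hochberg over 21844 genes). SEs were derived from the F statistic. Normalized CPM use TMM factors. Exact permutation tests used log2 values. Lengths, GC content and coordinates are from GENCODE vM21. GC and length curves were splines with 5 degrees of freedom, entered as offsets. Alternatives were DESeq2 1.42.0, its size factors, library totals, limma-voom (limma 3.58.1), other count filters, GC or length correction and leaving out each mouse. Averaging GC content over transcripts was chosen after seeing the data. On simulated counts of 21194 genes for this comparison, edgeR called 154 of 200 genes with a true log2 fold change of 1, and 955 unchanged ones. The total counts per library (42061721 to 54668294) make counting error small beside the spread between mice, which sets the SEs. No pair of libraries agreed within sampling noise.

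The members and gene lists were chosen with earlier results of these data known. Named genes are all members, each called gene of a list or else its lowest *P*, and the 3 genes most correlated with the member of lowest *P*. The labels do not say whether the mice were processed together. Python 3.11.15, pandas 2.3.3, scipy 1.17.1 and matplotlib 3.10.9 were used. A further list of related genes is not reported here.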

Additional observations from a re-analysis of the deposited data

How the results depend on the processing

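The number of genes called among all genes tested was 1568 with the GC correction and 1562 with GC content averaged over transcripts (chosen after seeing the data), against 2675 without, and 1430 to 3508 with each mouse left out in turn, lowest without AP1AR-DT OE B and 1620 without AP1AR-DT OE A. With either GC correction 0 members were called. With each mouse left out 1 to 2 were called, the second being *Gria4* without AP1AR-DT OE C. The other tests, scalings, filters and the length correction left 1 member called. Among the receptor partners 7 genes were called with GC content averaged over transcripts and 7 to 29 with each mouse left out, with 29 without control 1, 18 without AP1AR-DT OE C and 7 without AP1AR-DT OE A or B, against 11. The Log2FC changed sign for *Gria2* (0.19 and 0.072) and *Grik2* (0.12 and 0.055) with the GC corrections, by longest transcript and averaged. With each mouse left out it ran from -0.014 to 0.11 for *Gria3* (below 0 without control 3 or AP1AR-DT OE A) and from -0.36 to 0.21 for *Grik1* (above 0 without control 2). Of 135 Log2FC of members under the alternatives, 125 kept their direction and were called or not called as before, though some crossed a Log2FC of 0.32 without a change in the call. The adjusted *P* of *Grik5* ran from 0.0825 to 0.661. No paired analysis was possible because the groups share only mouse number 3 and the AP1AR-DT OE columns carry no mouse number.

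Leaving out 1 mouse ended the call of *Frrs1l* (-0.27 without control 3, -0.28 without AP1AR-DT OE A), *Pick1* (0.29 without control 2, 0.28 without AP1AR-DT OE A), *Akap5* (-1.03 without AP1AR-DT OE B), *Vps35* (-0.32 without AP1AR-DT OE B), *Dlg4* (0.29 to 0.31 without control 2, control 3, AP1AR-DT OE A or B) and *Cbln1* (-1.52 to -1.22 without control 2, control 3, AP1AR-DT OE A or B). *C1ql2* was called at -2.06 without control 1 and was at -0.42 without control 3. *Akap5* was at -0.60 without control 1, and *Gria4* at -0.19 without control 2. The length correction ended the calls of *Frrs1l* (-0.25), *Pick1* (0.30) and *Vps35* (-0.31), and limma-voom that of *Cbln1* (-1.35).

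With 3 mice per group the 95% confidence intervals ran from -0.91 to 0.50 for *Grik1* and from -0.22 to 0.90 for *Grik3*, so a gene not called is not shown to be alike in both groups.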
